A study of Mus musculus with 4 samples.

Results

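Differentiating spermatogonia were examined by single-cell RNA sequencing (scRNA-seq) of mouse testicular organoids (TOs) and mouse testes, with 2 libraries of each. The TOs were built from dissociated testis cells of 6 dpp (days post partum) ICR mice, kept in a medium with serum replacement, follicle-stimulating hormone, testosterone and the antioxidants ascorbic acid 2-glucoside, tocopherol acetate and glutathione, and harvested as 28-day-old TOs, although the protocol attached to the samples names day 21. The testes came from 28-day-old mice, and cells of both kinds were dissociated with collagenase and trypsin and were not sorted. The study describes the testis libraries as biological replicates and the TOs as coming from independent batches, but how many animals each library pooled and which batch gave which TO library are not given in the sources used here. The TO libraries held 106577822 and 119966959 UMIs (unique molecular identifiers, counts of captured RNA molecules), and the testis libraries 77016449 and 74988295.

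Barcodes with 1000 to 5000 detected genes and no more than 20000 UMIs, of which the mitochondrial genome gave no more than 10%, were kept. A kept barcode was taken as a differentiating spermatogonium, here called a member, when it held at least 3 UMIs of Stra8, Kit, Dmrtb1 and Crabp1 together with at least 2 of these genes detected, at least 2 UMIs of the germ cell genes Dazl and Ddx4 together, no UMI of Gfra1, Ret, Dmc1 or Meiob, and at most 1 UMI of Vim. This gave 541 members among 41484 kept barcodes. TO replicate 1 held 147 of them, TO replicate 2 held 64, testis replicate 1 held 240 and testis replicate 2 held 90. The members were chosen by the UMI counts of these 11 genes, so the levels of these genes are described below and were not tested. No barcode sequence was a member in more than 1 library, and 3 members had a barcode sequence that was also kept in another library.

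Differentiating spermatogonia arise when retinoic acid commits undifferentiated spermatogonia to a series of mitotic divisions that ends in meiosis. They carry the receptor tyrosine kinase KIT, which binds KIT ligand from Sertoli cells and signals through PI3K. Retinoic acid induces Stra8, which is needed for the meiotic programme, while CRABP1 binds retinoic acid in the cytoplasm and DMRTB1 is a transcription factor of the change from mitosis to meiosis.

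Stra8 (chr6, mm10) is the marker that retinoic acid induces, and retinoic acid receptors bind pairs of sites resembling the letters AGGTCA. In the RefSeq window (GRCm38.p6) from 250 bases before to 50 bases after the Stra8 start, these letters occurred 2 times, both on the strand of the gene, with first bases 194 and 38 bases before the start (-194 and -38). The 30 bases around each match are shown because the level of Stra8 differed between TO and testis members, as described below, with the matching letters in capitals.
Stra8, chr6:34920742-34920771, plus strand: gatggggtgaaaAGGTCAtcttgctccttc
Stra8, chr6:34920898-34920927, plus strand: gcctggggtaccAGGTCAgttttttacctg
AGGTCA or its reverse complement TGACCT occurred in 16.3% of the 32851 promoter windows in the table, and 1.79% of windows held 2 or more matches. The windows of Kit, Dmrtb1 and Crabp1 held neither. A match is a description of the sequence and not a measured binding site.

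Most members carried genes of spermatogonia, but a part of them, larger in the testes, did not. Members with a Crabp1 UMI (Crabp1-positive, 391 of 541) and members without one (Crabp1-negative, 150) were compared for 9 spermatogonial markers that the rule does not use: the transcription factors Sohlh1 and Sohlh2, the DNA methyltransferase Dnmt3b, Rhox13, Esx1, Ccnd2 (cyclin D2), the ubiquitin hydrolase Uchl1, Elavl2 and Scml2. Their summed level in Crabp1-positive members was 1679 and 1879 CPM (counts per 1e6 UMIs of the summed members, which are 3′ counts and not scaled by gene length) in the TO libraries and 1460 and 1668 CPM in the testis libraries. In Crabp1-negative members it was 1256 and 1849 CPM in the TO libraries and 256 and 209 CPM in the testis libraries. The testis values lay close to those of kept barcodes with at least 5 Vim UMIs and at most 1 UMI of Dazl and Ddx4 (Vim-high barcodes), which were 146 and 142 CPM and serve here as a measure of RNA that did not come from germ cells of that barcode. The Vim-high barcodes of the TOs had 324 and 211 CPM.

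At least 2 Uchl1 UMIs were found in 60.0% and 74.5% of the Crabp1-positive testis members but in 10 of 90 (11.1%) and 2 of 39 (5.13%) of the Crabp1-negative ones, against 80.0% and 93.3% of the Crabp1-positive TO members. In the Crabp1-negative TO members it was 8 of 17 (47.1%) and 3 of 4 (75.0%). Uchl1 was also present in Vim-high barcodes, with at least 1 UMI in 55.2% and 20.3% of those of the TOs (34.6% and 10.95% after thinning to 3000 UMIs) and 10.2% and 11.6% of those of the testes (7.32% and 8.15%). Dnmt3b stood at 85.2 and 115 CPM in Crabp1-positive and 3.8 and 2.82 CPM in Crabp1-negative testis members. Crabp1-negative testis members numbered 90 of 240 and 39 of 90, whereas the TO libraries held 17 of 147 and 4 of 64. In the testes, 54 and 26 of them were members through Kit and Dmrtb1 UMIs alone, with medians of 9757 and 12935 UMIs and of 0.188% and 0.103% mitochondrial UMIs, compared with 3.14% and 3.66% in the Crabp1-positive testis members.

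The summed level of 18 pachytene and spermatid markers was 15001 and 20583 CPM in the Crabp1-negative testis members, 6100 and 5984 CPM in the Crabp1-positive ones and 334 and 285 CPM in the Crabp1-positive TO members. Akr1cl, Fabp3, Aldh1a1 and Cyp17a1, the last a steroidogenic enzyme gene of Leydig cells, were among the genes with the largest ratio of Crabp1-negative to Crabp1-positive testis members, as were the acrosomal genes Acrv1 and Spam1. Akr1cl, Fabp3 and Aldh1a1 were also among the leading genes of the Crabp1-negative TO members, with the Leydig genes Insl3, Hsd3b1 and Cyp11a1. The 5 Leydig markers summed to 1381 and 78.7 CPM in the Crabp1-negative TO members and 123 and 1135 CPM in the Crabp1-negative testis members, and few barcodes held at least 5 UMIs of them, 2 of 17 and 0 of 4 in the TOs and 3 of 90 and 3 of 39 in the testes. The data thus went against the label for the Crabp1-negative testis members, and the tests are given for all members and for the Crabp1-positive members. That division was made after these values had been seen. A rule with only Stra8, Kit and Crabp1 as markers, also chosen then, had 144 and 63 members in the TO libraries and 98 and 41 in the testis libraries.

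**Figure D1:**
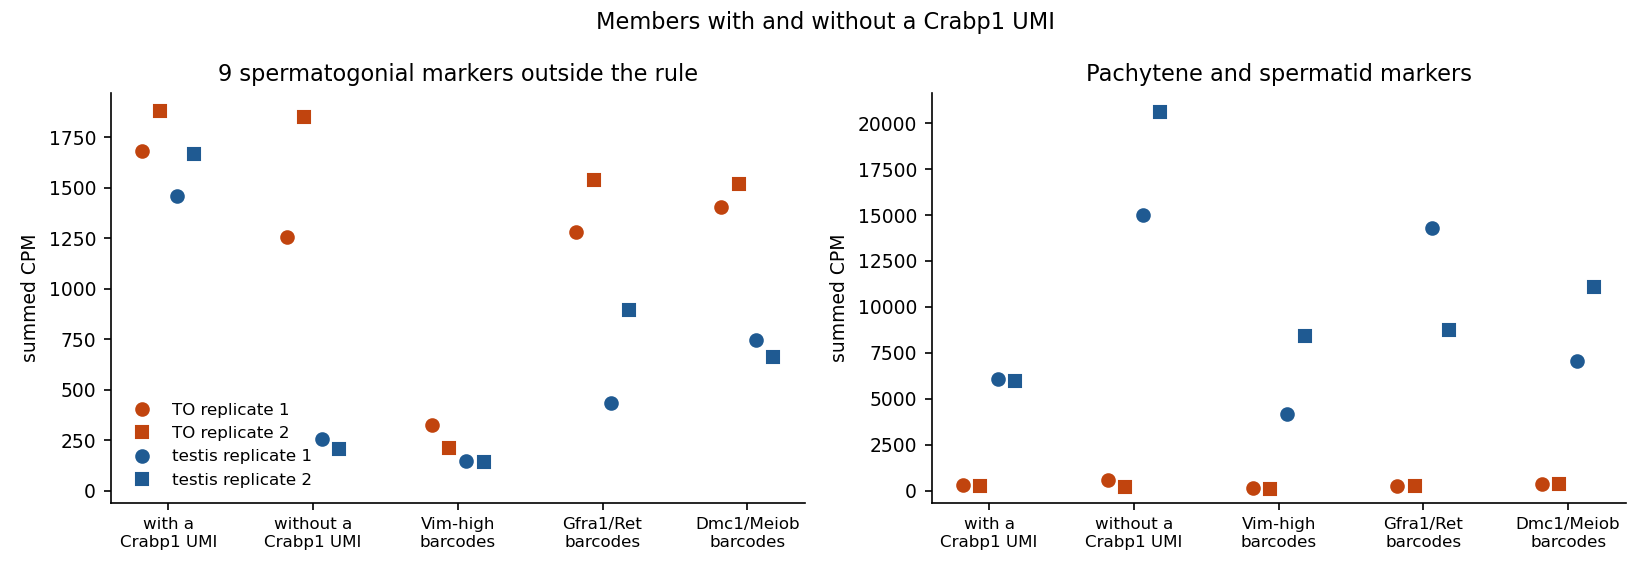
Summed CPM (linear axes) of the 9 spermatogonial markers outside the rule (left) and of the 18 pachytene and spermatid markers (right) in 5 sets of barcodes, with 1 point per library. In the testes the Crabp1-negative members lie at 256 and 209 CPM on the left, next to the Vim-high barcodes, while both TO sets lie at 1256 CPM or more.

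The values at the edge of the rule are given as a description. The TO libraries held 1 barcode each with 2 marker UMIs, just outside the rule, and 11 and 0 members with exactly 3. The testis libraries held 55 and 16 barcodes with 2 marker UMIs and 48 and 21 members with exactly 3. In testis replicate 1 the 9 independent markers summed to 1219 CPM just outside the rule and 1281 CPM just inside it, and in testis replicate 2 to 706 and 1178 CPM. Barcodes near the threshold were thus common in the testes and few in the TOs.

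Members differed in depth between the conditions. Median UMIs per member were 8110 and 9165.5 in the TO libraries and 6429 and 6438.5 in the testis libraries, and median genes were 3774 and 3822 against 3276 and 3384. Doublets were left in. Of the barcodes with the highest doublet scores, 16 and 0 were members in the TOs and 24 and 6 in the testes.

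The first comparison asked how common these cells were. Members made up 1.37% (147 of 10759, exact 95% interval 1.16 to 1.60) and 0.676% (64 of 9463, 0.521 to 0.863) of the kept barcodes of the TOs, and 2.22% (240 of 10804, 1.95 to 2.52) and 0.861% (90 of 10458, 0.693 to 1.06) of those of the testes. These intervals cover counting error only, and the libraries of the conditions overlapped. The means were 1.02% ± 0.488 (SD, n = 2) and 1.54% ± 0.962 (SD, n = 2), a difference of -0.52 percentage points, with p = 0.67 in an exact two-sided permutation test, which cannot go below 0.33 with 2 libraries against 2. Crabp1-positive members made up 1.21% and 0.634% in the TOs and 1.39% and 0.488% in the testes. With the rule without Dmrtb1 the difference turned to 0.353 percentage points, and without testis replicate 1 it turned to 0.161.

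Among germ cell barcodes, members were more frequent in both TO libraries than in either testis library. Of kept barcodes with at least 2 UMIs of Dazl and Ddx4 and at most 1 of Vim, members were 15.7% (147 of 934, exact 95% interval 13.5 to 18.2) and 9.33% (64 of 686, 7.26 to 11.8) in the TOs, and 6.23% (240 of 3852, 5.49 to 7.04) and 3.01% (90 of 2987, 2.43 to 3.69) in the testes. The means were 12.5% ± 4.53 and 4.62% ± 2.28 (SD, n = 2 each), a difference of 7.91 percentage points, which was 4.71 without TO replicate 1. The p of the exact two-sided permutation test was 0.33, the smallest this design allows. For Crabp1-positive members the shares were 13.9% and 8.75% in the TOs and 3.89% and 1.71% in the testes. The part of depth per barcode, which differed between the conditions, and of the other germ cells in the denominator was not tested here, apart from thinning to 3000 UMIs before the rule, which gave a difference of 10.4 percentage points.

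The genes of the rule were present at different levels in the members of the conditions. Stra8 stood at 844 and 689 CPM in the TO members and at 203 and 186 CPM in the testis members, and at 846, 657, 280 and 313 CPM in the Crabp1-positive members in that order. Vim-high barcodes had 2.46, 1.57, 1.13 and 0.360 CPM of Stra8, far below the members of their own library. Stra8 was detected in 96.6% and 100% of TO members and 44.6% and 50.0% of testis members. After each barcode was thinned to 3000 UMIs, which left out 9, 5, 24 and 10 shallower members, it was detected in 87.7%, 84.7%, 32.9% and 37.5%, against 1.03%, 0.586%, 0.193% and 0% of Vim-high barcodes, whose median UMIs before thinning were 10168, 8966.5, 5986 and 5970.5.

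Kit, the receptor of KIT ligand, was at 131 and 91.9 CPM in the TO members and 107 and 115 CPM in the testis members, so that the libraries overlapped, with 32.2, 26.8, 26.0 and 48.5 CPM in Vim-high barcodes. Crabp1 was at 375 and 342 CPM in the Crabp1-positive TO members and 333 and 399 CPM in the Crabp1-positive testis members. These members were selected for a Crabp1 UMI, so these levels cannot show whether Crabp1 differed between the conditions. Among all members, Crabp1 was detected in 88.4% and 93.8% in the TOs and in 62.5% and 56.7% in the testes. After the thinning used for Stra8, it was detected in 61.6% and 54.2% against 45.8% and 40.0%. Dmrtb1 went the other way from Stra8, with 49.5 and 37.0 CPM in Crabp1-positive TO members and 319 and 233 CPM in Crabp1-positive testis members. Dmrtb1 was also at 119 and 93.9 CPM in the Vim-high barcodes of the testes but at 4.09 and 3.42 CPM in those of the TOs. The part of background RNA in the Dmrtb1 difference was not tested. Of the other genes of the rule, the RNA-binding protein gene Dazl was at 1536 and 2002 CPM in Crabp1-positive TO members and 835 and 1474 CPM in Crabp1-positive testis members, and the RNA helicase gene Ddx4 at 268 and 311 CPM against 331 and 316 CPM. Since the rule used these genes, their differences were not tested.

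**Figure D2:**
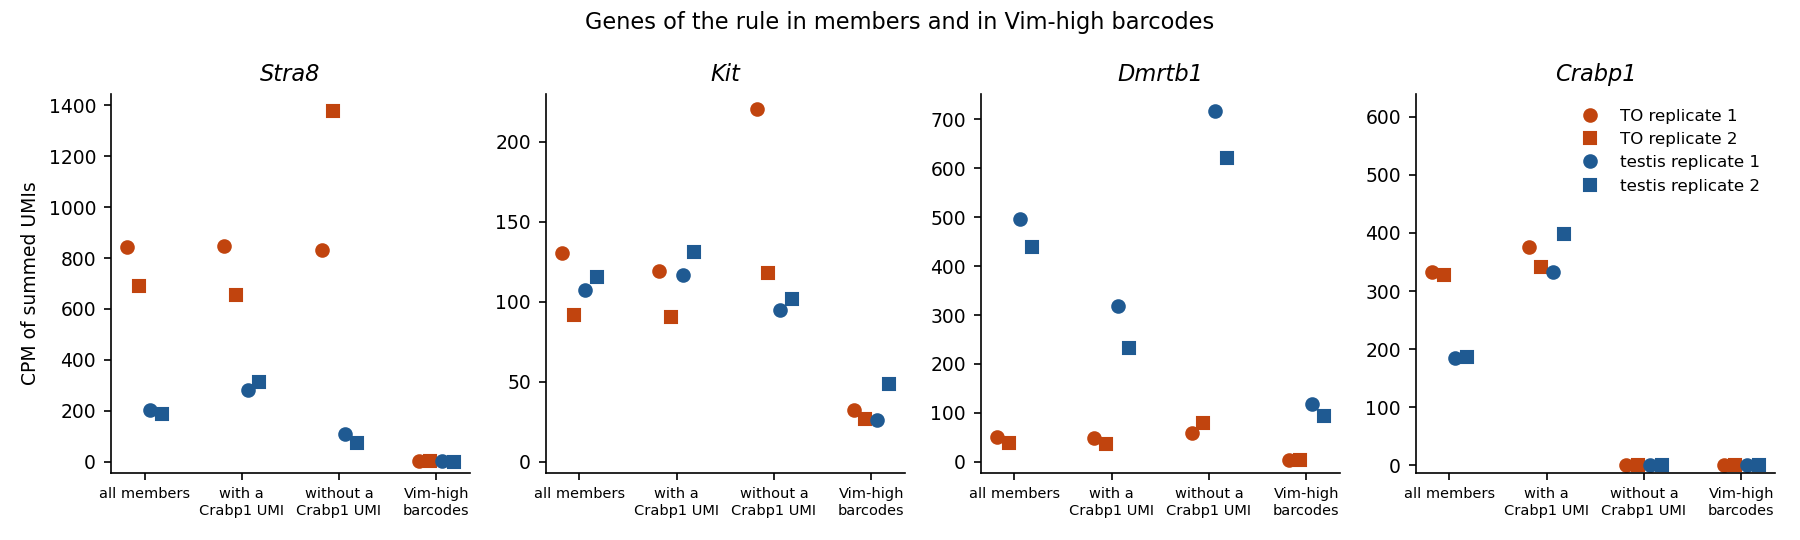
CPM of the 4 marker genes of the rule (linear axes, a separate scale per gene) in all members, in Crabp1-positive and Crabp1-negative members and in Vim-high barcodes, with 1 point per library. Stra8 is higher in both TO libraries than in both testis libraries among all members (844 and 689 against 203 and 186 CPM), and Dmrtb1 is lower.

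The combinations of markers differed accordingly. Stra8, Kit and Crabp1 without Dmrtb1 was the most common combination in the TO libraries, in 49 and 24 members, and Kit with Dmrtb1 alone was the most common in the testis libraries, in 54 and 26 members. All 4 markers were detected in 22 and 7 TO members and in 22 and 9 testis members.

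The position of the members between the neighbouring stages was then described from genes outside the rule. The list of meiotic entry genes (24 found in the files, such as the cohesin Smc1b and the synaptonemal complex genes Sycp1 to Sycp3) summed to 3358 and 3463 CPM in Crabp1-positive TO members and 3163 and 3410 CPM in Crabp1-positive testis members. In Dmc1/Meiob barcodes, germ cell barcodes with at least 2 UMIs of these recombination genes, it summed to 10234 and 12885 CPM in TOs and 8444 and 11359 CPM in testes. The list of 14 genes of undifferentiated spermatogonia summed to 298 and 490 CPM in Crabp1-positive TO members and 359 and 335 CPM in Crabp1-positive testis members, against 1730, 1824, 446 and 1180 CPM in barcodes with at least 2 UMIs of the niche receptor genes Gfra1 and Ret. Zbtb16, a transcription factor of undifferentiated spermatogonia, was at 76.2, 94.3, 96.3 and 89.3 CPM in the Crabp1-positive members of the 4 libraries, whereas Tcl1, Lhx1, Nanos2 and Eomes were at no more than 2.03 CPM in any of them. These genes were named after their values had been seen, and most of the list's sum in these members came from its other genes.

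In all members the meiotic entry list summed to 3454, 3594, 3062 and 3264 CPM and the undifferentiated list to 284, 472, 224 and 193 CPM. The log2 ratio of the meiotic entry list to the undifferentiated list was 3.6 and 2.93 in the TO members and 3.77 and 4.08 in the testis members, a difference of -0.66 with a pooled SD between replicates of 0.37. It turned to 0.31 with barcodes thinned to 3000 UMIs before the rule, and it was -0.997 without TO replicate 1 and -0.32 without TO replicate 2. For Crabp1-positive members it was 3.49 and 2.82 against 3.14 and 3.35, a difference of -0.086, and the libraries overlapped. The ratio was 0.10 and 0.16 in the Gfra1/Ret barcodes of TOs and 2.38 and 1.02 in those of testes, and between 6.29 and 7.23 in the Dmc1/Meiob barcodes of the 4 libraries. Members of each library thus lay between its Gfra1/Ret and Dmc1/Meiob barcodes on this measure. The Gfra1/Ret barcodes of the testes also held 6435 and 2698 CPM of the 5 pachytene markers and 7884 and 6030 CPM of the 13 spermatid markers. The 9 spermatogonial markers outside the rule summed to 433 and 894 CPM in them, against 1280 and 1540 CPM in those of the TOs. In the testes they are thus an uncertain measure of the undifferentiated stage. The Gfra1/Ret and Dmc1/Meiob barcodes lack or hold by definition genes that the member rule excludes, so that no test was made.

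S phase genes (18, such as Mcm2 to Mcm7 and Pcna) summed to 2244 and 2540 CPM in Crabp1-positive TO members and 2130 and 2198 CPM in Crabp1-positive testis members, above the 1417, 1574, 583 and 1043 CPM of the Gfra1/Ret barcodes. G2/M genes (18, such as Mki67 and Top2a) summed to 3375, 2778, 2984 and 3369 CPM in the Crabp1-positive members, above the 1042 to 1457 CPM of the Gfra1/Ret barcodes. The Gfra1/Ret barcodes of the testes held the pachytene and spermatid RNA given above, which limits both comparisons. The Dmc1/Meiob barcodes were at 2580, 2667, 1909 and 1497 CPM for S phase genes and at 3130, 3126, 2623 and 2967 CPM for G2/M genes, so that the members' sums were not above those of the next stage in every library. In all members the S phase sums were 2211 and 2544 CPM in the TOs and 1476 and 1303 CPM in the testes, and the G2/M sums 3291 and 2689 CPM and 2398 and 2287 CPM, so that the conditions stood apart there. In the Crabp1-positive members the libraries of the conditions overlapped for G2/M genes, and for S phase genes the TO values were the higher ones, with less between the nearest libraries than between the TO libraries. None of the 18 S phase and 18 G2/M genes was called between Crabp1-positive TO and testis members, beside 7.68% of all genes.

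**Figure D3:**
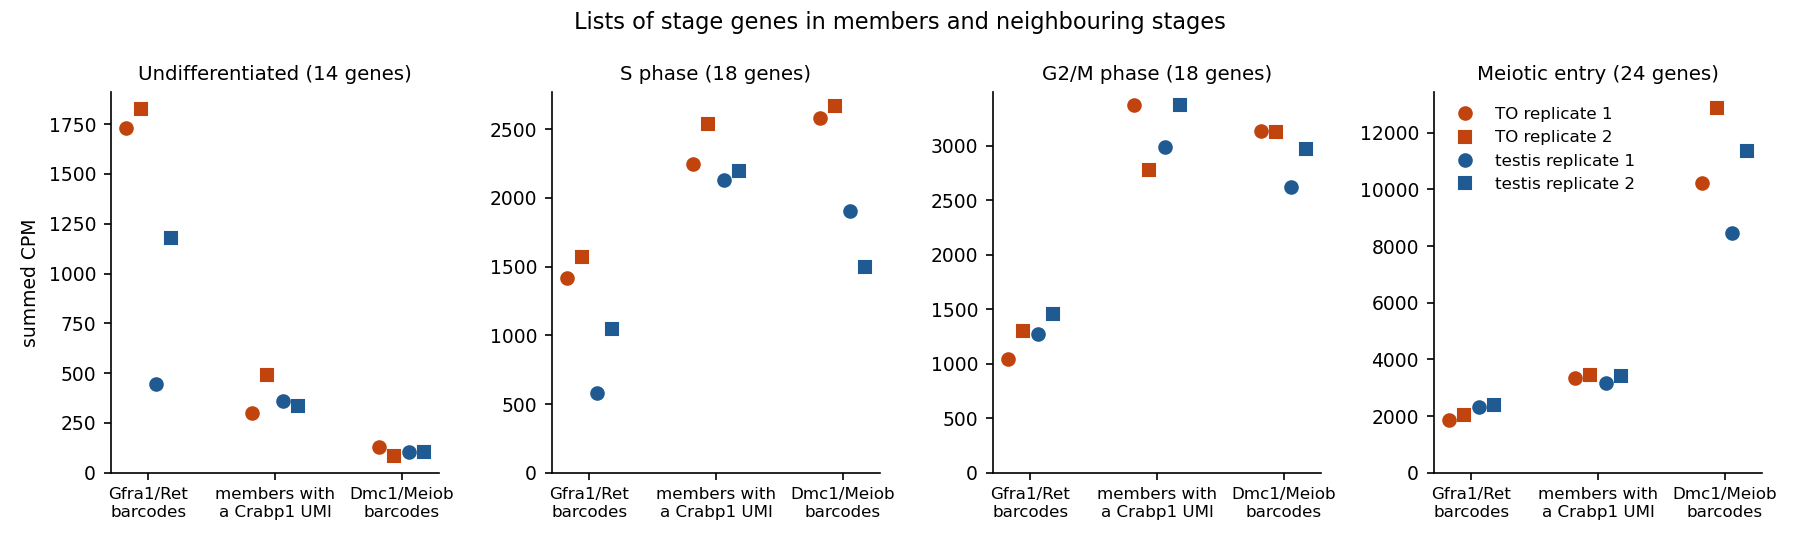
Summed CPM (linear axes from 0) of the undifferentiated, S phase, G2/M phase and meiotic entry lists in Gfra1/Ret barcodes, Crabp1-positive members and Dmc1/Meiob barcodes, with 1 point per library. The Gfra1/Ret barcodes of the testes also held pachytene and spermatid RNA. The members are low for undifferentiated genes (298 to 490 CPM), above Gfra1/Ret barcodes but near Dmc1/Meiob barcodes for S phase and G2/M genes, and lie at 3163 to 3463 CPM for meiotic entry genes, below the 8444 CPM or more of Dmc1/Meiob barcodes.

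TO and testis members were compared across all genes with edgeR's quasi-likelihood test on the UMIs summed per library, and a gene was called when its p after Benjamini-Hochberg adjustment was below 0.01 and its log2 fold change was above 1 or below -1. Of 9846 genes tested, 222 (2.25%) were called higher and 2168 (22%) lower in TO members, 24.3% in either direction. The libraries of the conditions did not overlap, with TOs above, for 53.4% of these genes and, with TOs below, for 26.9%, so that libraries that stand apart are common. Among the Crabp1-positive members, 9 of 8990 genes (0.1%) were called higher and 681 (7.58%) lower (7.68% in either direction), and all 9 and 676 of the 681 had also been called in all members. The Crabp1-positive members are a part of all members in the same libraries, so much of this overlap was built in. In the Crabp1-positive set TO libraries stood apart above for 30.3% of genes and below for 21.4%. With the rule without Dmrtb1, 16 of 8312 genes (0.192%) were called higher and 462 (5.56%) lower (5.75% in either direction). In the Crabp1-positive members no gene was called by edgeR's quasi-likelihood test without TO replicate 2 or without testis replicate 2, with 1356 and 2340 genes at an unadjusted p below 0.05 beside 1853 with all libraries. Such a fit leaves a lone library that is assumed to vary like the other condition. With no upper limit on genes and UMIs per barcode, 0 genes were called higher and 163 lower in all members, with 5545 genes at an unadjusted p below 0.05, and DESeq2 called 39 higher under the stated limits. The median log2 fold change over all tested genes was 0.05 for all members and 0.01 for Crabp1-positive members.

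The 12 genes with the largest lower values in all members (among those with at least 50 CPM in the testes) were genes of spermatids or of testis transcripts without an assigned role: H1fnt, BC048562, Hils1, 1700067P10Rik, 1700001P01Rik, Prm3, Odf3, Spaca7, Cypt4, Fam24b, Ropn1 and 1700029I15Rik. H1fnt, a linker histone gene of spermatids, had no UMI in TO members and 282 in testis members, which is at least 67.4-fold lower with a floor of 3 UMIs over the TO members, and BC048562 was at least 58.1-fold lower. The other 10 had 1 to 3 UMIs in TO members. Hils1, another spermatid linker histone gene, had 1 UMI in TOs and 1194 in testes, a ratio of 857 (95% counting interval 153 to 33867). Hils1 was also at 160 and 118 CPM in the Vim-high barcodes of the testes and at 0.144 and 0.606 CPM in those of the TOs, beside 243 and 105 CPM in the Crabp1-positive testis members.

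Spermatid RNA was present throughout the testis libraries. The 13 spermatid markers summed to 3166 and 4303 CPM in Crabp1-positive testis members and to 2470 and 7065 CPM in Vim-high testis barcodes, against 12.4 and 29.6 CPM in Crabp1-positive TO members. Prm1, the protamine gene and the most abundant of them, was detected in 98.0% and 100% of Crabp1-positive testis members and in 97.3% and 99.7% of Vim-high testis barcodes, and it was left out of the test because it was more abundant in other barcodes. The 5 pachytene markers summed to 2934 and 1681 CPM in Crabp1-positive testis members, 1701 and 1357 CPM in Vim-high testis barcodes and 322 and 255 CPM in Crabp1-positive TO members. All 7 tested spermatid markers were called lower in all members, and 5 of 5 in the Crabp1-positive members. At their low level in TO members they could pass the count filter through the testis libraries alone, so these calls are a description only. All 5 pachytene markers were called lower in all members, and 4 of 5 in the Crabp1-positive members, beside 22% and 7.58% of all genes. Among them Pgk2 had 3 UMIs in the Crabp1-positive TO members and 138 in the Crabp1-positive testis members. It too could pass the count filter through the testis libraries alone, so the pachytene calls are also a description only. Of the 681 genes called lower in Crabp1-positive members, 79.1% had a mean CPM in Vim-high testis barcodes of at least 0.5 times that in the members, compared with 68.4% of all genes tested. In all members this share was lower among the 2168 genes called lower than among all genes tested, 24.7% against 66.0%. When a background profile of each library was subtracted, 1737 genes were called lower in all members and 231 in the Crabp1-positive members.

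Among genes with at least 50 CPM in the TOs, those with the largest higher values in all TO members were Fthl17e, Gadd45a, Rhob, Cwc22, Bik, Nanp, Hmga1, Fthl17c, Pdcl3, Mlx, Ctsl and Nek7, with log2 fold changes between 1.55 and 2.36. Gadd45a, a stress and DNA damage response gene, was at 81.7 and 84.8 CPM in TO members and 9.01 and 22.5 CPM in testis members (log2 fold change 2.19 ± 0.37, SE, adjusted p = 6.5e-05). Bik, which encodes a pro-apoptotic BH3-only protein, was at 80.1 and 122 CPM against 21.4 and 21.0 CPM (1.77 ± 0.31). Hmga1, a chromatin protein gene of proliferating cells, was at 75.0 and 38.9 CPM against 18.6 and 4.49 CPM (1.67 ± 0.43). In Crabp1-positive members these 3 genes had log2 fold changes of 1.72 ± 0.40, 1.32 ± 0.32 and 1.25 ± 0.46 and were not called. Cwc22, a splicing factor gene, was at 324 and 242 CPM in TO members, 12.4 CPM in testis replicate 1 and 126 CPM in testis replicate 2, and Vim-high barcodes had 257, 258, 18.6 and 147 CPM. Named genes were refitted with the background profile subtracted and with 1 library left out. Beyond such refits, the part of the library or of background RNA in the Cwc22 difference was not tested. Ctsl, a cathepsin abundant in Sertoli cells, was at 434 and 219 CPM against 64.2 and 108 CPM in members, and at 2960, 1897, 996 and 1400 CPM in Vim-high barcodes.

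The 9 genes called higher in the Crabp1-positive TO members were Fthl17e, Fthl17f, Nceh1, Rhob, Dtd2, Serinc1, Txn1, mt-Nd2 and Trap1a. In this set DESeq2 called 1 gene higher, the fit with a replicate block 65, and edgeR's quasi-likelihood test without TO replicate 1 called 2. Trap1a (chrX:139333683-139338169), an X-linked gene that encodes a tumour rejection antigen, had 192 and 192 CPM in the TO libraries and 77.1 and 89.3 CPM in the testis libraries (log2 fold change 1.11 ± 0.24). Vim-high barcodes held at most 1.25 CPM of Trap1a, so that the members' libraries were far above this background and did not overlap. The ferritin heavy chain-like genes Fthl17e (chrX:9033486-9034333) and Fthl17f (chrX:9063090-9063822) were at 46.6 and 77.7 CPM against 11.2 and 12.8 CPM (2.23 ± 0.45) and at 34.3 and 62.9 CPM against 9.13 and 3.19 CPM (2.47 ± 0.55), with at most 0.337 CPM in Vim-high barcodes. Fthl17c, at 92.3 and 131 CPM against 34.5 and 54.2 CPM, was called in all members (1.66 ± 0.31) and not in the Crabp1-positive members (1.29 ± 0.32). The transcripts of Fthl17c and Fthl17e are 96.7% identical, and that of Fthl17f is 93.4% and 93.5% identical to them (GENCODE M21), so that reads may have been split between these genes and their separate values are uncertain.

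Rhob, which encodes a small GTPase of actin and endosome traffic, was at 114 and 68.4 CPM against 21.3 and 28.7 CPM in Crabp1-positive members (1.85 ± 0.36). Txn1 (thioredoxin) was at 224 and 185 CPM against 70.0 and 105 CPM (1.18 ± 0.26). Rhob and Txn1 were more abundant in Vim-high barcodes than in members, at 357, 235, 131 and 172 CPM and at 664, 1114, 506 and 758 CPM. Serinc1 (1.55 ± 0.31), a membrane protein gene, was also more abundant there, at 212, 148, 105 and 109 CPM, while Dtd2 (1.74 ± 0.37), which encodes a tRNA deacylase, was at 74.3 and 81.4 CPM against 16.2 and 31.9 CPM in members and 41.2 to 64.2 CPM in Vim-high barcodes. Nceh1 (2.15 ± 0.48), a cholesteryl ester hydrolase gene, was at 43.8 and 31.4 CPM against 7.1 and 9.57 CPM in members and 21.6 to 35.0 CPM in Vim-high barcodes. Within the Crabp1-positive members, the part of background RNA in these differences was not tested gene by gene. Over the whole fit, 6 genes were called higher in Crabp1-positive members with the background profile subtracted.

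**Figure D4:**
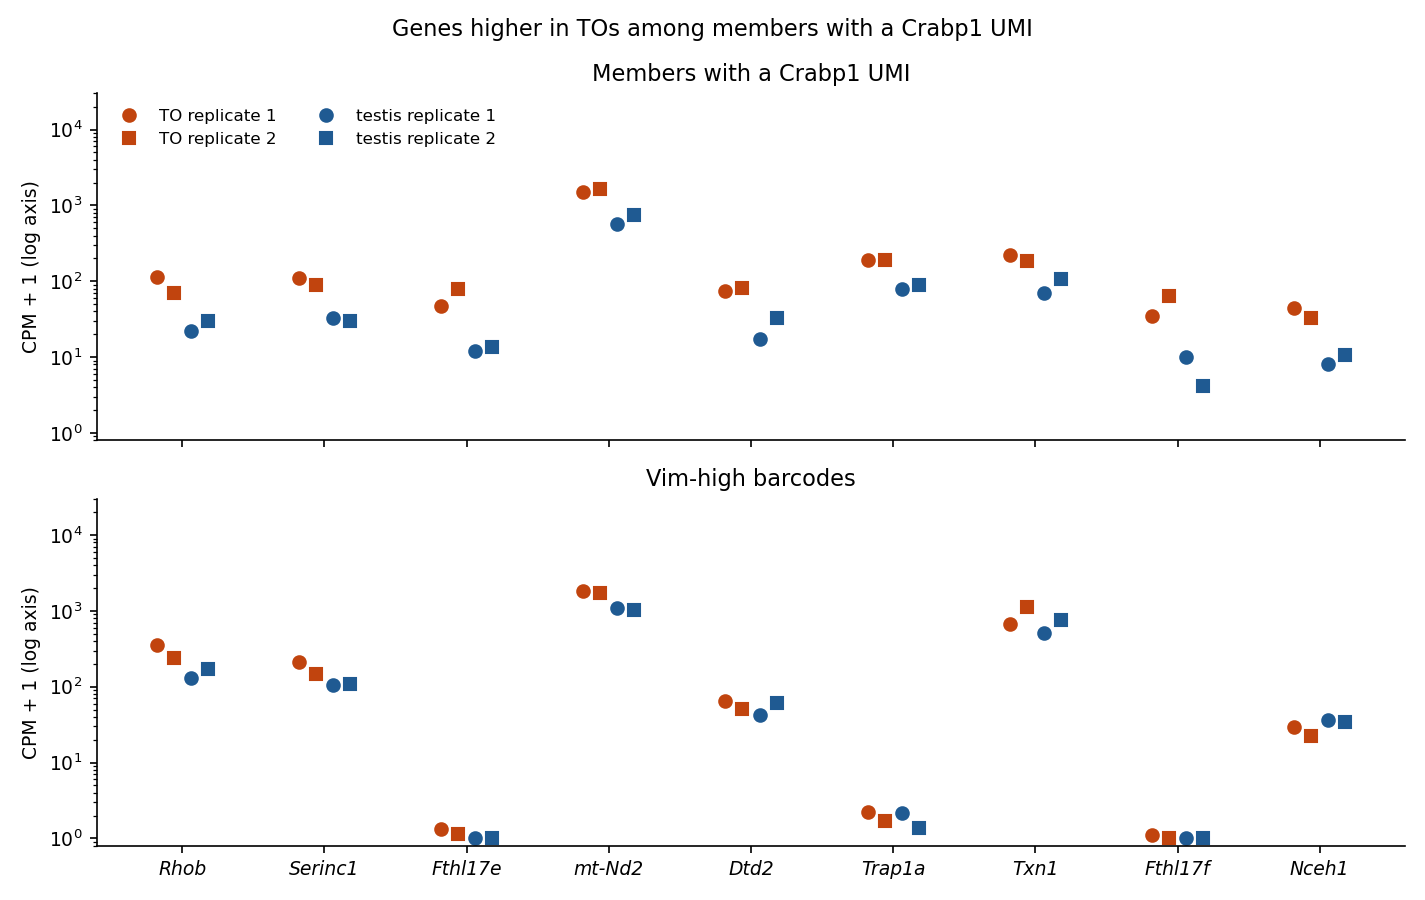
CPM + 1 (log axes, same range) of the 9 genes called higher in Crabp1-positive TO members, in those members (top) and in Vim-high barcodes (bottom), with 1 point per library. Fthl17e, Fthl17f and Trap1a are at most 1.25 CPM in Vim-high barcodes, whereas Rhob, Serinc1, Txn1 and mt-Nd2 are as abundant there as in members or more.

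The X chromosome held 313 of the genes tested in all members that matched RefSeq, of which 21 (6.71%) were called higher and 41 (13.1%) lower, beside 2.25% and 22% of all genes tested. In the Crabp1-positive members, 3 of 287 X-linked genes were called higher (1.05%; Fthl17e, Fthl17f and Trap1a) and 7 lower (2.44%), beside 0.1% and 7.58% of all genes tested. No test of these shares was made. Their median log2 fold change was 0.21, against 0.01 for all matched genes.

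Of the 9 spermatogonial markers outside the rule, none was called in the Crabp1-positive members (median log2 fold change 0.16, against 0.01 over all genes tested), where 7.68% of all genes were called in either direction. The Crabp1 division was made after the levels of these 9 markers had been seen. It left out the testis members with low levels of them, so the absence of calls in that set is a description only. In all members Sohlh2 alone of the 9 was called, and higher (1.38 ± 0.31, adjusted p = 0.0016), beside 2.25% of all genes called higher. Sohlh2, a transcription factor needed for spermatogonial differentiation, was at 67.6 and 75.8 CPM against 31.4 and 31.9 CPM in Crabp1-positive members (1.04 ± 0.32, adjusted p = 0.059). Uchl1 was at 633 and 740 CPM against 520 and 622 CPM, a log2 fold change of 0.16 with a 95% interval of -0.35 to 0.68. Esx1, an X-linked homeobox gene, was at 90.4 and 85.1 CPM against 135 and 137 CPM (-0.75 ± 0.24, adjusted p = 0.070).

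In the retinoic acid pathway, 6 of 18 listed genes had enough UMIs and passed the filter on background, and none was called in all members or in Crabp1-positive members, where 24.3% and 7.68% of all genes were called in either direction. The receptor gene Rara was at 28.6 and 33.3 CPM in Crabp1-positive TO members and 28.4 and 41.5 CPM in Crabp1-positive testis members (-0.23, 95% interval -1.06 to 0.60), and Rarg, the receptor gene of differentiating spermatogonia, at 17.1 and 5.55 CPM against 25.4 and 19.1 CPM (-1.01, -2.14 to 0.12). Aldh1a2, a retinaldehyde dehydrogenase that makes retinoic acid, was at 32.4 and 33.3 CPM against 38.5 and 41.5 CPM in Crabp1-positive members (-0.40 ± 0.35). The retinoic acid-degrading gene Cyp26a1 was at 6.66, 7.40, 7.1 and 6.38 CPM and was not tested. Of 20 genes around KIT and PI3K signalling, 14 were tested and none was called in either set, beside the same shares. The adaptor gene Grb2 had the highest level among them, with 252 and 218 CPM against 170 and 220 CPM, and Foxo1, whose protein is inactivated by PI3K signalling, was at 90.4, 92.5, 98.4 and 95.7 CPM. Intervals of this width do not show that the pathway genes were equal.

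Of the 22 tested genes of meiotic entry, Syce1 and Syce3, which encode central elements of the synaptonemal complex, were called lower in all members (-1.78 ± 0.23 and -2.19 ± 0.26), beside 22% of all genes, and none was called in Crabp1-positive members, beside 7.68%, where these genes had -0.95 ± 0.25 and -1.37 ± 0.35. In that set Sycp3, a lateral element gene, was at 303 and 411 CPM against 200 and 303 CPM, and Tex15, a gene of meiotic recombination, at 526 and 394 CPM against 345 and 380 CPM. Of 18 tested G2/M genes, Ccnb2 and Plk1 were called lower in all members, beside 22% of all genes (-1.44 ± 0.23 and -1.14 ± 0.27), and they were not called in Crabp1-positive members (-0.49 ± 0.27 and -0.85 ± 0.31). No S phase gene was called in either set, beside 24.3% and 7.68% of all genes in either direction. The helicase gene Hells, the most abundant, had a log2 fold change of 0.49 ± 0.24 in all members and 0.08 ± 0.24 in Crabp1-positive members. Of 6 tested genes of undifferentiated spermatogonia, none was called in either set, beside 24.3% and 7.68% of all genes in either direction.

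In the group of piRNA genes, Gtsf1, Mael, Tdrd6 and Tdrd7 were called lower in all members, 4 of 17 tested beside 22% of all genes, and Gtsf1 and Tdrd6 in Crabp1-positive members, beside 7.58% of all genes. Gtsf1, a cofactor of PIWI proteins, was at 169 and 176 CPM in Crabp1-positive TO members and 670 and 453 CPM in Crabp1-positive testis members (-1.84 ± 0.27). It was at 336 and 231 CPM in the Vim-high barcodes of the testes and at 9.68 and 6.45 CPM in those of the TOs. Of 8 DNA methylation genes 4 were tested and none was called in all members or in Crabp1-positive members, beside 24.3% and 7.68% of all genes in either direction. Dnmt1, the maintenance methyltransferase gene, had 0.92 ± 0.22 in all members and 0.53 ± 0.23 in Crabp1-positive members.

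Of the glycolysis list, 4 of 12 tested genes were called lower in all members (Slc2a3, Hk1, Pfkm and Eno1), beside 22% of all genes, and 3 of 13 in Crabp1-positive members (Slc2a3, Hk1 and Pfkp), beside 7.58%. Slc2a3, a glucose transporter gene, was at 9.52 and 3.70 CPM in Crabp1-positive TO members and 69.0 and 118 CPM in Crabp1-positive testis members (-3.67 ± 0.46), and Hk1, the hexokinase gene that also has a sperm form, had a log2 fold change of -2.25 ± 0.39. Vim-high barcodes of the testes had 66.4 and 70.8 CPM of Slc2a3 and 101 and 88.5 CPM of Hk1. Gapdh, the most abundant gene of the list, was at 286 and 364 CPM against 284 and 278 CPM (0.09, 95% interval -0.43 to 0.61).

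The 13 genes of the mitochondrial genome summed to more in both TO libraries than in both testis libraries, and 3 of them, mt-Cytb, mt-Nd1 and mt-Nd2, were called higher in all members (1.04 ± 0.25, 1.04 ± 0.26 and 1.38 ± 0.25), beside 2.25% of all genes. In Crabp1-positive members mt-Nd2 alone was called, beside 0.1% of all genes called higher. It was at 1496 and 1648 CPM against 564 and 737 CPM (1.18 ± 0.25), and the median log2 fold change of the list was 0.69. The median share of mitochondrial UMIs was 5.20% and 6.0% in TO members and 2.82% and 3.28% in testis members, and 5.22% and 5.99% against 3.14% and 3.66% in the Crabp1-positive members. Membership required at most 10%, so that the share is also bounded by the rule.

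Antioxidant genes went in both directions. Cat (catalase), Prdx2 and Txn1 were called higher and Gpx4, Gstm5 and Prdx6 lower in all members, 6 of 16 tested beside 24.3% of all genes in either direction, and Txn1, Gpx4 and Gstm5 were called in the same directions in Crabp1-positive members (3 of 16 tested), beside 7.68%. Gpx4, a peroxidase that also becomes a structural protein of sperm, was at 310 and 300 CPM against 797 and 597 CPM in Crabp1-positive members (-1.32 ± 0.26), and at 693 and 602 CPM in the Vim-high barcodes of the testes. The most abundant gene, Prdx1 (peroxiredoxin), was at 2185 and 2340 CPM against 1373 and 1566 CPM (0.52 ± 0.25, not called).

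Of 12 tested heat shock genes, Hspa4l and Dnajb1 were called lower in all members (-2.86 ± 0.24 and -2.68 ± 0.28), beside 22% of all genes. Hspa4l, a chaperone gene abundant in later germ cells, was the 1 called lower in Crabp1-positive members (-1.62 ± 0.27), beside 7.58% of all genes. Hsp90ab1, the most abundant, was at 2288 and 2719 CPM against 2132 and 2287 CPM in Crabp1-positive members (0.07, 95% interval -0.47 to 0.62). Of 13 tested genes of p53 and apoptosis, Gadd45a alone was called in all members, beside 2.25% of all genes, also with the rule without Dmrtb1 (1.69 ± 0.38) and not in Crabp1-positive members, and Bax was at 376 and 468 CPM against 292 and 431 CPM in Crabp1-positive members. None of 12 tested hypoxia genes and none of 6 tested genes of the amino acid response was called in all members or in Crabp1-positive members, beside 24.3% and 7.68% of all genes in either direction. Of 3 tested immediate early genes, Klf4 was called lower in all members (-1.61 ± 0.29), beside 22% of all genes, and not in Crabp1-positive members (-0.50 ± 0.44). In the cholesterol synthesis list, Insig1 was called higher (1.02 ± 0.29) and Cyp51 and Fdft1 lower (-1.38 ± 0.29 and -1.84 ± 0.23) in all members, 3 of 19 tested beside 24.3% of all genes in either direction. None of 18 tested was called in Crabp1-positive members, beside 7.68% of all genes. Of 80 tested ribosomal protein genes, Rpl10l, Rpl36 and Rpl39l were called lower in all members, beside 22% of all genes. In Crabp1-positive members Rpl39l, a copy used in the testis, was called lower (-1.17 ± 0.26), beside 7.58% of all genes.

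**Figure D5:**
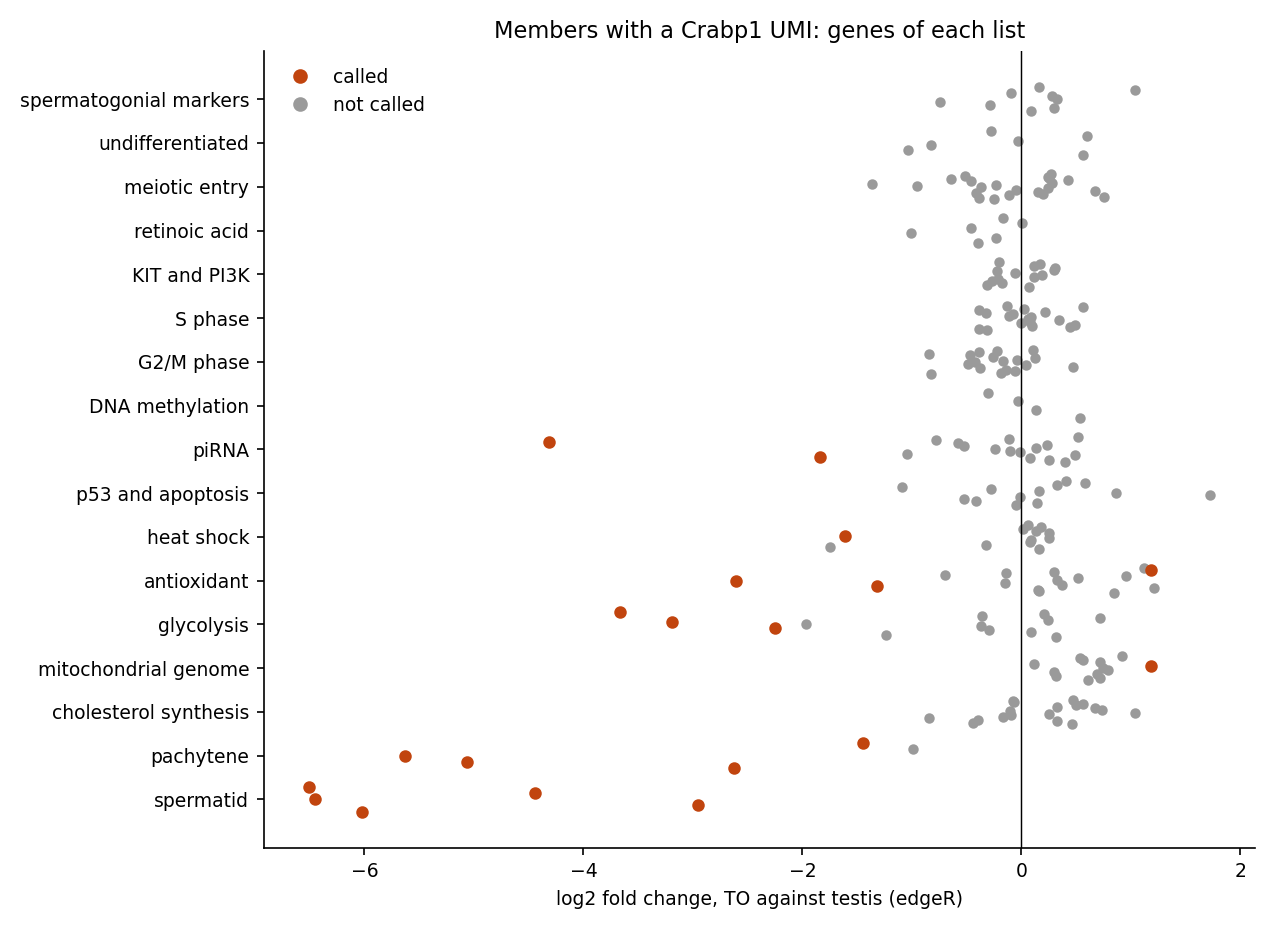
Log2 fold change of TO against testis (edgeR, linear axis) in Crabp1-positive members for each tested gene of 17 lists, with 1 point per gene, called genes in orange and others in grey. The called points lie in the pachytene, spermatid, glycolysis, antioxidant, piRNA and heat shock lists and, above 0, at Txn1 (1.18) and mt-Nd2 (1.18), while no point is called in the spermatogonial, retinoic acid, KIT and PI3K, meiotic entry or cell cycle lists. The Crabp1 division was made after the levels of the spermatogonial markers had been seen.

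Markers of other cell types were low in Crabp1-positive members but not equally in all libraries. The 8 Sertoli markers summed to 857, 342, 165 and 220 CPM, with Ctsl the most abundant and Amh at 0 in all 4 libraries, against 3031 CPM or more in Vim-high barcodes. The 7 myoid and fibroblast markers summed to 624, 141, 50.7 and 28.7 CPM, and the smooth muscle actin gene Acta2 was at 213 CPM in TO replicate 1 but 20.4, 5.07 and 0 CPM in the others. The 5 Leydig markers summed to 157, 44.4, 30.4 and 35.1 CPM, the 6 macrophage markers to 39.0, 48.1, 65.9 and 6.38 CPM, with Cd68 at 0 in all 4, and the 3 endothelial markers to 6.66, 7.40, 4.06 and 0 CPM. TO replicate 1 thus had the highest Sertoli, Leydig and myoid sums. In all members the Leydig sum was highest in testis replicate 2, at 297, 45.9, 71.6 and 619 CPM, while the Sertoli sums were 874, 346, 114 and 163 CPM and the myoid sums 614, 141, 90.1 and 23.97 CPM. From markers that members should lack, the share of background RNA was estimated, in the Crabp1-positive members only, at 9.99% and 2.90% of UMIs in the TO libraries and 31.1% and 7.82% in the testis libraries.

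Whether the difference between TOs and testes was the same in the members as at the next stage was tested by an interaction with the Dmc1/Meiob barcodes of the same libraries. Of 11048 genes, 13 (0.118%) had a higher and 368 (3.33%) a lower TO-to-testis difference in all members than in Dmc1/Meiob barcodes (3.45% in either direction). For Crabp1-positive members the counts were 8 (0.0763%) and 14 (0.134%) of 10486 genes (0.21% in either direction). Piwil1, a PIWI protein gene that rises at the pachytene stage, was at 9.52, 7.40, 13.2 and 22.3 CPM in Crabp1-positive members and at 6.35, 7.50, 168 and 160 CPM in Dmc1/Meiob barcodes, an interaction of 3.61 ± 0.66 on the log2 scale (SE). The members had low Piwil1 in every library, and the Dmc1/Meiob barcodes had low Piwil1 in TOs only. Cyct, the testis cytochrome c gene, was at 115, 176, 90.3 and 163 CPM in members and 87.2, 100.4, 249 and 342 CPM in Dmc1/Meiob barcodes (1.81 ± 0.29).

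In the other direction, Uchl1 was at similar levels in Crabp1-positive members of TOs and testes and at 279, 204, 91.4 and 73.3 CPM in Dmc1/Meiob barcodes (-1.35 ± 0.25). Esx1 (-1.63 ± 0.33) and the centromere histone gene Cenpa (-1.54 ± 0.28) were also higher in the Dmc1/Meiob barcodes of TOs than in those of testes, with 102 and 186 CPM against 85.4 and 55.2 CPM for Esx1 and 205 and 147 CPM against 60.9 and 49.6 CPM for Cenpa. Ftl1, the ferritin light chain gene, was at 540 and 808 CPM against 416 and 453 CPM in members and 301 and 328 CPM against 133 and 64.2 CPM in Dmc1/Meiob barcodes (-1.19 ± 0.25). After the background profile was subtracted, 0 genes were called in the interaction for Crabp1-positive members by edgeR's quasi-likelihood test, with 1311 at an unadjusted p below 0.05, and DESeq2 without that subtraction called 3. Without TO replicate 2 edgeR's quasi-likelihood test called 0, with 779 at an unadjusted p below 0.05, and without testis replicate 1 it called 104.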

How the data were processed

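The authors deposited raw feature-barcode matrices of UMI counts for 32285 genes, 1 matrix per library, made by 10x Genomics 3′ chemistry with Cell Ranger 7.1.0 on mm10 per the submitters' processing notes. Whether intronic reads were counted is not given in the sources used here. The counts are not normalized, and 51139 barcodes were deposited in all.

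The members, the 26 gene lists and the tests were chosen with earlier results of these data known. UMI counts of the members were summed per library, since cells are not replicates, and tested with edgeR 4.0.16 (R 4.3.3; quasi-likelihood F test, TMM, filterByExpr, Benjamini-Hochberg adjustment). The 11 genes of the rule stayed in the library sizes and out of the test. Genes whose CPM in other kept barcodes was at least 5 times that in the members, in either condition, were left out as possible background. The SE is the absolute log2 fold change divided by the root of the F statistic. The interaction used sums of members and of Dmc1/Meiob barcodes with library as a block. Shares of barcodes have exact Clopper-Pearson intervals at 95% (SciPy 1.17.1), which cover counting error only. Where a condition had 3 UMIs of a gene or fewer, its ratio was pooled over libraries.

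Named genes were the 12 called genes with the largest absolute log2 fold change in each direction, among those with at least 50 CPM in the higher condition and libraries that did not overlap, the genes of the rule, and, of each list, the called genes (at most 6) and the most abundant gene. Fthl17f and the other genes called higher in Crabp1-positive members, the interaction genes, Dnmt3b, Zbtb16, Tcl1, Lhx1, Nanos2, Eomes, Rara, Rarg, Aldh1a2, Cyp26a1, Foxo1, Sycp3, Tex15, Esx1 and the leading genes of Crabp1-negative members were named after their values had been seen.

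The background profile of a library was that of all its barcodes, scaled to remove spermatid markers in testes and Leydig, macrophage, endothelial and myoid markers in TOs from the Crabp1-positive members, and the same share was used for all members. Doublets were left in, and an alternative removed the highest Scrublet scores (scanpy 1.11.5). On data simulated for the comparison of members (10555 genes), 17% of genes changed by a log2 fold change of 1 and 76% of those changed by 2 were called, with 5 unchanged genes called. For the interaction (11473 genes) these shares were 0% and 27%. The simulated counts followed all members, without the filter on background, and no simulation was made for the Crabp1-positive members. For the interaction, the 2 sums of a library were drawn without a shared library effect. Alternatives to the limits, the rule, the normalization, the tool (DESeq2 1.42.0), the filters and the replicates are given in the closing section.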

Additional observations from a re-analysis of the deposited data

Results flagged for a closer look

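The difference between TOs and testes was unlike that of Dmc1/Meiob barcodes for some genes of the members, by the interaction in edgeR's quasi-likelihood test. In all members, 13 genes had a higher difference, among them Stambp (2.75), Piwil1 (2.51) and Tdrd5 (1.92, log2 scale), and 368 had a lower one. In Crabp1-positive members, 8 genes had a higher and 14 a lower difference, the largest being Piwil1 (3.61 ± 0.66, SE) and BC051142 (-2.69 ± 0.40). BC051142 was at 15.2 and 5.55 CPM in TO members, 264 and 156 CPM in testis members, 109 and 126 CPM in Dmc1/Meiob barcodes of TOs and 364 and 319 CPM in those of testes. With the background profile subtracted, 3 genes passed in all members and 0 in Crabp1-positive members.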

How the results depend on the processing

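Named genes gave 1055 values under the alternatives run for them, of which 897 kept direction and side of the threshold, 148 no longer passed it, 4 newly passed it and 6 uncalled values changed sign: Hells (-0.016), Hsp90ab1 (-0.018) and Mthfd2 (-0.0071) with the rule without Dmrtb1, Mthfd2 with Crabp1-positive members (-0.034) and without testis replicate 1 (-0.022; 0.24 at the highest, without TO replicate 1), and Higd1a without testis replicate 1 (0.21; -0.36 at the lowest, without testis replicate 2). The difference in the share of kept barcodes turned to 0.353 with the rule without Dmrtb1 and to 0.161 percentage points without testis replicate 1 (-1.20 without testis replicate 2), and that among Dazl/Ddx4 barcodes (7.91) was 4.71 to 11.1 with 1 replicate left out. Genes called higher in all members (222) became 0 with no upper limit on genes or UMIs, 31 with barcodes thinned before the rule, 39 with DESeq2, 60 with the background profile subtracted, 134 with sums thinned to the smallest library, 16 with the rule without Dmrtb1, 1003 at an adjusted p below 0.05 with no fold threshold, and 57 to 343 with 1 replicate left out (57 and 90 without TO replicates 1 and 2, 109 and 343 without testis replicates 1 and 2). Genes called lower (2168) became 163 with no upper limit, 925 with barcodes thinned, 462 with the rule without Dmrtb1, and 1193 (without TO replicate 1) to 2390 with 1 replicate left out. For Crabp1-positive members (9 higher and 681 lower) the counts were 6 and 231 with the background profile subtracted, 1 and 482 with DESeq2, 71 and 911 at an adjusted p below 0.05 with no fold threshold, and 0 to 17 and 0 to 248 with 1 replicate left out. Genes in the interaction (381) became 113 with DESeq2, 221 with none left out as background, 239 with genes left out from 2 times, 3 with the background profile subtracted, 148 with sums thinned, 84 with the rule without Dmrtb1, 832 at an adjusted p below 0.05 with no fold threshold, and 147 to 255 with 1 replicate left out (183 without TO replicate 2, 178 and 147 without testis replicates 1 and 2). For Crabp1-positive members (22) the interaction count was 0 with the background profile subtracted, 3 with DESeq2 and 0 to 104 with 1 replicate left out (26 without testis replicate 2). The log2 ratio difference (-0.66) became -1.05 with no upper limit, -1.34 at most 5% mitochondrial UMIs, 0.31 with barcodes thinned, -0.27 with the rule without Dmrtb1, -0.39 with the background profile subtracted, -0.997 to -0.32 with 1 replicate left out, -0.086 for Crabp1-positive members and 0.23 for these with the background profile subtracted. Same-numbered libraries correlated at 0.070 (all members) and 0.082 (Crabp1-positive) in their deviations, with 2 pairs only, which does not establish that the numbers pair the libraries or that they share no batch. With the replicate block 290 genes were higher and 2248 lower in all members, 65 and 897 in Crabp1-positive members, and 205 were called in the interaction when it took the place of the library block. The cause of these changes was not tested. Thinning barcodes before the rule also changed which barcodes were kept, 4644 in place of 10804 in testis replicate 1. With 2 libraries a group, most genes given a difference of 1 on the log2 scale were not called in the data simulated from all members.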
